A study of Mus musculus with 12 samples.

Results

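The miRNAs of the miR-297, miR-466, miR-467 and miR-669 families are small regulatory RNAs of mouse and rat, most of which are encoded by a dense block of repeated miRNA genes in the gene Sfmbt2 (a Polycomb group gene). In the deposited data they were represented by every TaqMan assay named for 1 of these numbers, with any letter, arm or # sign. This gave 25 of the 619 miRNA assays, of which 2 were for miR-297, 6 for miR-466, 9 for miR-467 and 8 for miR-669. Of the 25 assays, 8 gave a threshold cycle (Ct) in all 12 samples and could be compared between groups. With the mean of the miRNAs detected in all samples as normalizer, no comparison had all 8 higher or all 8 lower, and none of the 8 passed the test across all miRNAs. With the small RNA snoRNA202 as normalizer, all 8 were lower in wt post-SE than in wt control samples. The median log2 difference of the 8 was then -0.94, beside -0.81 for all 335 miRNAs. The member with the lowest p in 3 of the 5 comparisons was miR-467a, whose average fold change (FC) in P2rx7-/- control mice was 0.456 ± 0.177 (SD, n = 3) relative to wt control mice. This lower level was seen with 1 of the 2 assays for miR-467a, and the other, read in 8 samples, did not show it.

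A mature miRNA guides silencing complexes to messenger RNAs, mostly through its seed (bases 2 to 8 from the 5′ end). The block in Sfmbt2 is thought to have grown by local duplication, so that many of its miRNAs are near copies of one another, with long stretches of alternating GU or AC. It is imprinted, with expression from the paternal allele, and is best known from the placenta and from embryonic stem cells.

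The study profiled miRNAs in the ipsilateral hippocampus of male C57BL/6 mice that were wild-type (wt) or P2rx7-/-, lacking exon 2 of P2rx7, the gene of an ATP-gated ion channel, in all cells. The 4 groups of 3 samples were wt control and P2rx7-/- control mice, injected with vehicle (PBS) into the amygdala, and wt and P2rx7-/- mice after status epilepticus (SE), called post-SE, injected with 0.3 μg kainic acid (KA) to induce it. All mice, vehicle-injected ones included, also received 6 mg/kg lorazepam at 40 min, and tissue was taken at 8 h. Each sample pooled hippocampi of 2 mice, and the age was 8 weeks per the labels and 8 to 12 weeks per the methods. In such tissue samples, fewer cells of a type and less RNA per cell cannot be told apart.

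The gene annotation was set against the name of the cluster. RefSeq lists 82 mouse genes of these 4 families, of which 72 lie within the bounds of Sfmbt2 on chromosome 2 and 10 elsewhere. Of the 24 assays matched to such genes, 18 have all their genes within Sfmbt2 and 5 have none there. The 5 are miR-467F, whose gene lies within Fxr2 on chromosome 11, miR-669N within Slc30a7 on chromosome 3, miR-466K on chromosome 3, miR-466J on chromosome 10 and miR-467H on chromosome 9. The assay for miR-297a# has genes in both places, and miR-466a-3p was not matched. The miR-467a assays match 10 copies and the miR-669a assay 12 copies, all within Sfmbt2, so these assays may read sums over several genes. How far the assays separate near copies of other members was not tested. The 8 miRNAs with a Ct in every sample therefore comprised 6 with genes within Sfmbt2 only, miR-467F from outside and the unmatched miR-466a-3p.

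Mature sequences were at hand for the 5 members encoded outside Sfmbt2. They are shown because they include miR-467F, the member with the lowest Ct among the 8, and for the repeat character of these 5. They are RefSeq sequences on GRCm38.p6, 5′ to 3′, with the seed in capitals. Their positions are chr11:69635419-69635439 on the minus strand for miR-467f and, on the plus strand, chr3:115979905-115979924 for miR-669n, chr3:85467396-85467418 for miR-466k, chr10:60960802-60960824 for miR-466j and chr9:115381898-115381919 for miR-467h.
miR-467f: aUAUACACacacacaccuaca
miR-669n: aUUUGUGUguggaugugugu
miR-466k: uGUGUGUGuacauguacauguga
miR-466j: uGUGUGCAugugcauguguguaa
miR-467h: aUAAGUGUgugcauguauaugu
No seed is shared among these 5, and 1 of them, that of miR-467h, is also the seed of another mouse miRNA, miR-668-5p. The longest run in which purines and pyrimidines alternate spans 16 of the 21 bases of miR-467f, 8 of 20 in miR-669n, 22 of 23 in miR-466k and in miR-466j and 18 of 22 in miR-467h. Over the 1679 mature mouse miRNAs of the same collection the median of this run was 4 bases. The stretch UGUGUG or GUGUGU occurs in miR-669n, miR-466k, miR-466j and miR-467h, and in 1.91% of all mature miRNAs. The stretch CACACA or ACACAC occurs in miR-467f, and in 1.01% of all. The members encoded within Sfmbt2 are named only.

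Facts of the whole series bear on these values. Between 470 and 538 of the 619 miRNA assays had a Ct per sample, and 335 had one in all 12. The more of a miRNA, the lower its Ct, by 1 cycle for about each doubling. wt control replicate 1 stood apart from the other samples, with rank correlations of 0.660 to 0.737 with them, whereas the median for each other sample was 0.893 or higher. The hippocampal label was checked with miRNAs known from brain, and miR-124a, miR-128a and miR-137, with a Ct in 11, 12 and 12 samples, had median Ct values of 14.4 to 14.6. miR-9 had a Ct in only 4 samples, from 10.1 to 12.3, and miR-138 in 10, from 10.1 to 24.0. Of the miRNAs known from liver or muscle, miR-122 had a median of 24.1 and miR-133a of 16.1, so that these were not absent. The table holds no messenger RNA, and the loss of P2rx7 was not checked here.

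Detection of the families was incomplete, where a missing Ct need not mean a low level. miR-9, at 10.1 to 12.3, had a Ct in only 4 samples. Of the 2 assays for miR-467a, 1 had Ct values of 14.1 to 18.0, in 8 samples only. Why Ct values were missing was not tested. A Ct in all 12 samples was present for 8 of the 25 assays (32%) and for 54.1% of all miRNA assays. Those 8 were 2 of the 6 miR-466 assays and 6 of the 9 miR-467 assays, and none of the miR-297 and miR-669 assays. Per sample, 17 to 23 of the 25 had a Ct, with the most in wt control replicate 2.

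In wt control samples 17, 23 and 22 assays had a Ct, and in P2rx7-/- control samples 17, 21 and 21. In wt post-SE samples the numbers were 19, 20 and 21, and in P2rx7-/- post-SE samples 22, 17 and 20. The 4 groups overlapped, and the group means, from 19.7 to 20.7, did not differ beyond the spread of the samples. The 5 comparisons between groups gave two-sided exact permutation p-values of 0.6 to 1, where 3 samples against 3 cannot give less than 0.1.

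**Figure D1:**
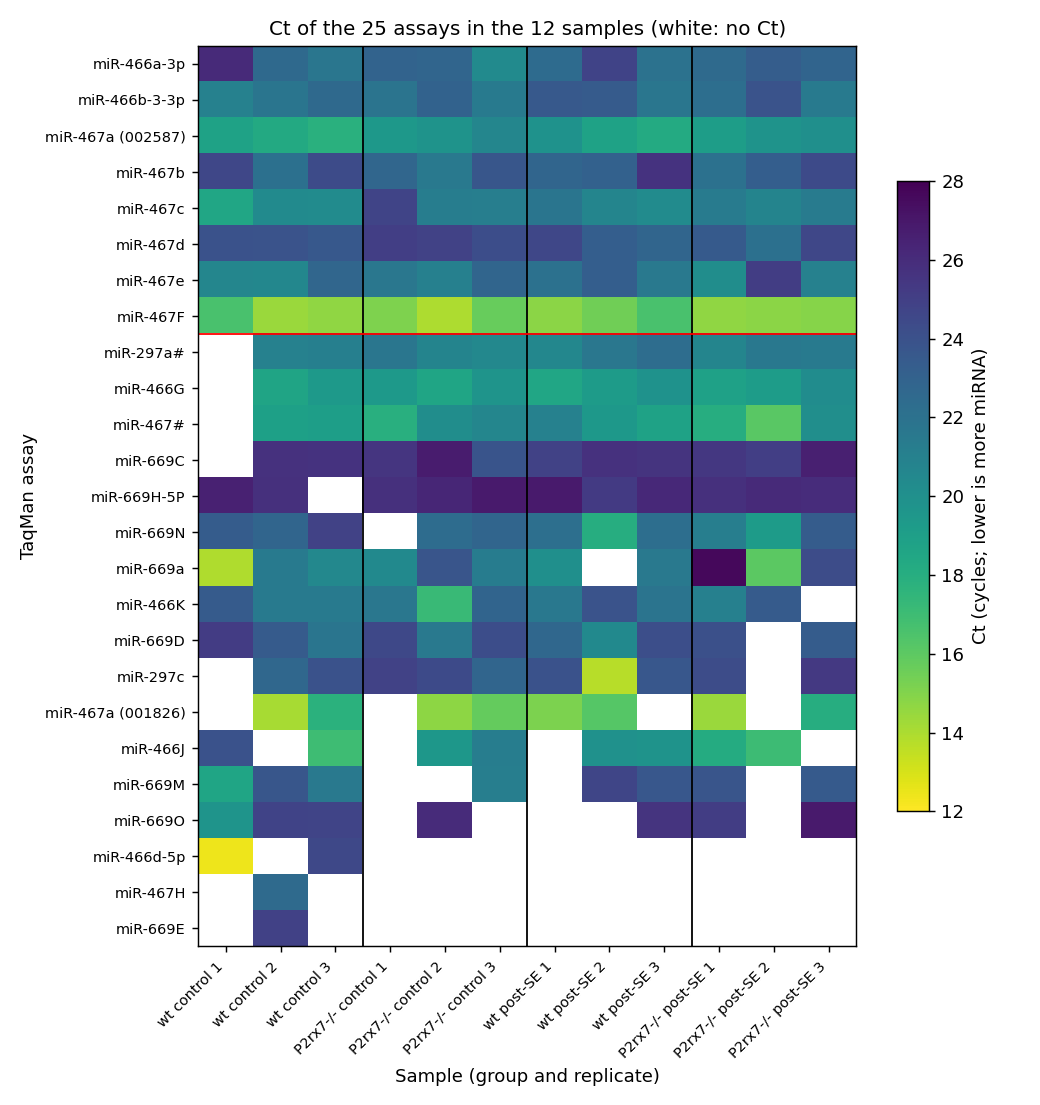
Ct of each of the 25 assays (rows) in each of the 12 samples (columns, by group and replicate), where white marks the absence of a Ct and the red line separates the 8 assays with a Ct in every sample from the other 17. miR-467F has the lowest values of the upper 8 in all samples, and the last 3 rows hold values in wt control samples alone.

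Another 9 assays lacked a Ct in 1 sample each. For miR-297a#, miR-466G, miR-467# and miR-669C the missing sample was wt control replicate 1, the sample that stood apart. The Ct ranges over the other 11 samples were 20.5 to 22.3 for miR-297a#, 18.5 to 20.2 for miR-466G, 16.1 to 21.0 for miR-467# and 23.8 to 26.8 for miR-669C. miR-669H-5P lacked a Ct in wt control replicate 3 and otherwise ran from 25.3 to 26.8, close to the upper limit of the table at 28. miR-297a#, miR-466G and miR-669H-5P were thus the steadiest of these assays, with ranges of 1.75, 1.69 and 1.54 cycles.

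The remaining assays were read in fewer samples or gave single values far from the rest. miR-466d-5p had a Ct in wt control replicates 1 and 3, at 12.4 and 24.5. miR-467H and miR-669E had 1 value each, both in wt control replicate 2, at 22.5 and 24.9. These 3 assays gave no Ct in any P2rx7-/- or post-SE sample, but never had one in more than 2 of 3 wt control samples, and the 2 values of miR-466d-5p were 12.1 cycles apart.

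Far values were counted without assays that had a Ct in 2 or fewer samples, which were 3 of the 25. Of the 236 remaining Ct values, 9 (3.81%) were over 4 cycles from their assay's median elsewhere, against 3.08% over all miRNA assays. The farthest was miR-297c in wt post-SE replicate 2, at 13.7 where the median of the other samples was 24.0. miR-669a was at 13.9 in wt control replicate 1, 16.1 in P2rx7-/- post-SE replicate 2 and 27.6 in P2rx7-/- post-SE replicate 1, against medians of the other samples of 21.4, 21.4 and 20.9. Its values therefore span 13.8 cycles, within groups as well as between them.

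miR-669M and miR-669O, read in 8 and 7 samples, were lowest in Ct in wt control replicate 1, at 18.6 and 19.7. In their other samples they ran from 21.2 to 24.7 and from 24.7 to 26.8. miR-466J was highest in that sample, at 24.0 against a median of 19.5. Of the 9 far values, 4 were thus in wt control replicate 1. The other far values were miR-669N in wt post-SE replicate 2, at 18.0 where the median of the rest was 22.5, and miR-466K in P2rx7-/- control replicate 2, at 17.2 where it was 21.8.

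The 8 assays with a Ct in all samples were scaled by subtracting the mean Ct over the 335 miRNAs detected in all samples (ΔCt), and are given as FC relative to the average ΔCt of wt control samples. Values of a group are listed for replicates 1, 2 and 3. Since the FC is taken against the average of the log values, the wt control values multiply to 1.

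miR-467a, in the first of its 2 assays, had FCs of 0.976, 0.958 and 1.07 in wt control samples and of 0.636, 0.448 and 0.284 in P2rx7-/- control samples. In wt post-SE samples they were 0.533, 0.858 and 1.05, and 0.529, 0.502 and 0.412 in P2rx7-/- post-SE samples. All P2rx7-/- control and all P2rx7-/- post-SE samples lay below all wt control samples, and all P2rx7-/- post-SE samples below all wt post-SE samples. Over both treatments, the genotypes overlapped through wt post-SE replicate 1. The SD within groups was 0.40 on the log2 scale, and 18.2% of the 335 miRNAs had a smaller one.

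miR-467c had FCs of 3.05, 0.629 and 0.521 in wt control samples and of 0.0452, 0.450 and 0.547 in P2rx7-/- control samples. They were 0.386, 0.601 and 0.691 in wt post-SE samples and 0.3001, 0.659 and 0.457 in P2rx7-/- post-SE samples. wt control replicate 1 was the highest of the 12 and P2rx7-/- control replicate 1 the lowest by far, and the groups overlapped.

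miR-467d had FCs of 1.24, 0.913 and 0.887 in wt control samples and of 0.627, 0.616 and 1.07 in P2rx7-/- control samples. They were 0.927, 1.81 and 2.02 in wt post-SE samples and 1.19, 4.55 and 0.810 in P2rx7-/- post-SE samples. The highest value, in P2rx7-/- post-SE replicate 2, stood alone in its group.

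miR-467e had FCs of 2.12, 1.63 and 0.290 in wt control samples and of 1.18, 1.51 and 0.536 in P2rx7-/- control samples. They were 0.981, 0.324 and 0.866 in wt post-SE samples and 2.07, 0.102 and 1.77 in P2rx7-/- post-SE samples. Each group held values below 0.6 and above 0.9, and P2rx7-/- post-SE replicate 2, the sample highest in miR-467d, was the lowest of all.

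miR-467b had FCs of 0.707, 2.85 and 0.497 in wt control samples and of 2.83, 5.67 and 1.40 in P2rx7-/- control samples. They were 2.94, 1.95 and 0.255 in wt post-SE samples and 2.88, 1.94 and 0.829 in P2rx7-/- post-SE samples. wt control replicate 2 was close to the highest sample of each post-SE group, and the groups overlapped.

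miR-467F, the member encoded in Fxr2, had FCs of 0.521, 1.68 and 1.14 in wt control samples and of 1.58, 2.93 and 1.03 in P2rx7-/- control samples. They were 2.17, 1.01 and 0.381 in wt post-SE samples and 1.35, 1.92 and 1.75 in P2rx7-/- post-SE samples. The 3 P2rx7-/- post-SE samples were close together, within the range of the wt post-SE samples. The mean Ct of miR-467F was 15.1, against 19.2 to 23.9 for the other 7, although Ct values of different assays also depend on how well each assay amplifies.

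miR-466a-3p had FCs of 0.213, 1.82 and 2.58 in wt control samples and of 2.08, 1.96 and 12.04 in P2rx7-/- control samples. They were 3.15, 0.484 and 2.73 in wt post-SE samples and 1.79, 1.55 and 2.06 in P2rx7-/- post-SE samples. wt control replicate 1 was the lowest of the 12 samples, and P2rx7-/- control replicate 3 the highest.

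miR-466b-3-3p had FCs of 2.36, 0.923 and 0.459 in wt control samples and of 1.37, 0.538 and 1.82 in P2rx7-/- control samples. They were 0.466, 0.378 and 1.02 in wt post-SE samples and 0.653, 0.311 and 1.68 in P2rx7-/- post-SE samples. All 4 groups overlapped.

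**Figure D2:**
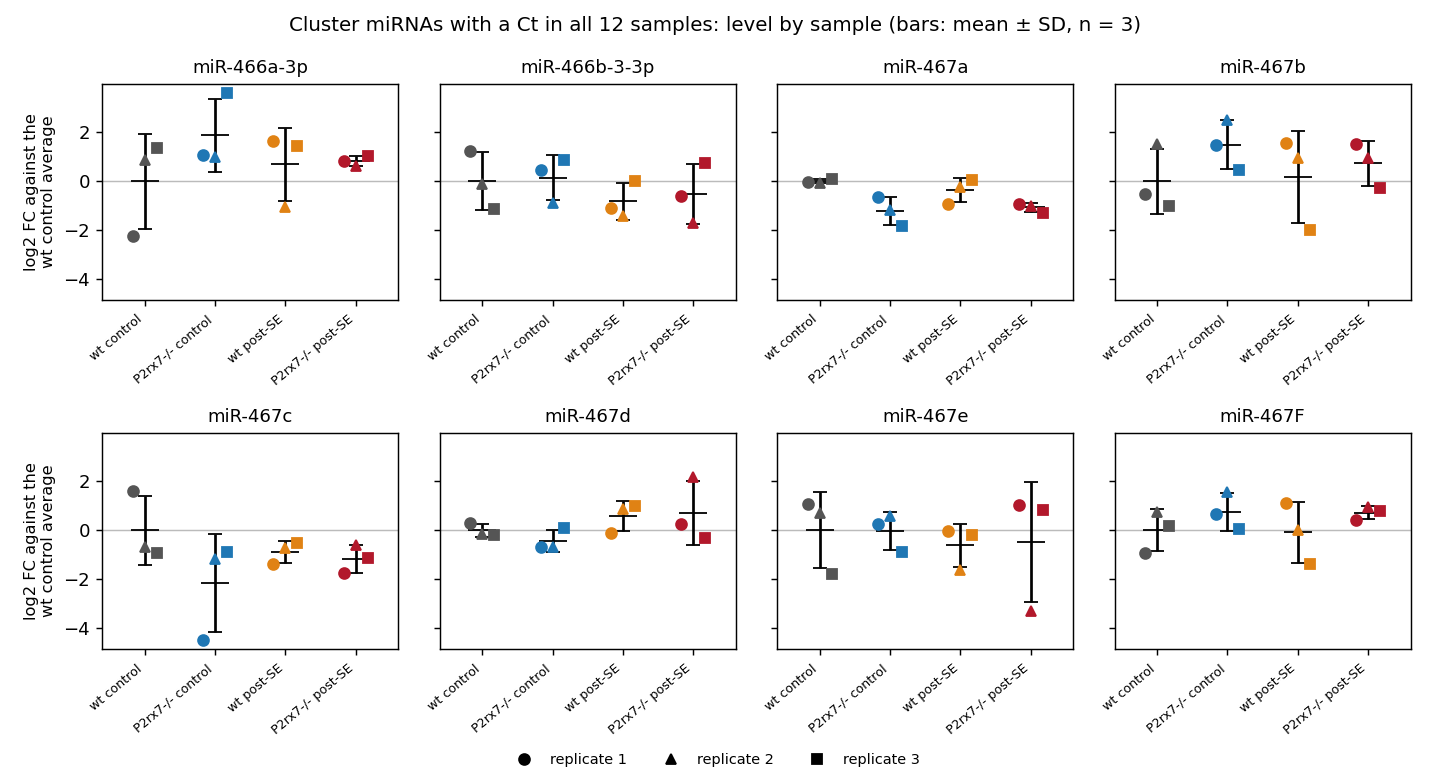
Level of the 8 miRNAs in each sample as log2 FC relative to the wt control average, by group (x axis), with the mean and SD of each group as bars and the replicate number as the symbol. miR-467a is the tightest, with both P2rx7-/- groups below 0, while the other panels show single samples such as wt control replicate 1 in miR-466a-3p or P2rx7-/- post-SE replicate 2 in miR-467e far from their group.

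The spread within groups was wide for 7 of the 8. The median SD within groups of the 8 was 1.15 on the log2 scale, from 0.40 for miR-467a to 1.56 for miR-467e. The median over all 335 miRNAs was 0.64, and that of the 42 miRNAs of the imprinted miR-379 to miR-410 cluster, another large imprinted miRNA cluster, was 0.56. wt control replicate 1 was the highest of the 12 samples in miR-466b-3-3p, miR-467c and miR-467e and the lowest in miR-466a-3p.

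The effect of genotype without seizures was addressed by P2rx7-/- control against wt control samples. An average FC above 1.5 (called up-regulated) or below 0.6 (called down-regulated) was the criterion of the methods. miR-466a-3p, miR-467b and miR-467F were called up-regulated, with average FCs of 5.36 ± 5.78, 3.30 ± 2.17 and 1.85 ± 0.98 (SD, n = 3). The SD beside an average FC is that of the 3 samples of the first group. It leaves out the spread of the reference group, which the limma standard errors include. miR-467a, at 0.456 ± 0.177, and miR-467c, at 0.347 ± 0.266, were called down-regulated. The 3 and 2 calls among 8 stand beside 21.2% and 15.5% of all 335 miRNAs called up- and down-regulated.

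The groups did not overlap for 1 of the 8 in this comparison, miR-467a, and all P2rx7-/- control samples were lower, as they were in 10.4% of all miRNAs. Its log2 difference was -1.21 ± 0.36 (SE), with an unadjusted limma p of 0.00737 and an adjusted p of 0.615. That of miR-467c was -2.16 ± 0.95 (SE), with an unadjusted limma p of 0.0448 and the same adjusted p. The adjusted limma p was below 0.05 for 0 of the 8 and for 0 of the 335 miRNAs, and the unadjusted p was below 0.05 for 2 of the 8 and for 5.97% of all.

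Without wt control replicate 1, the average FC of miR-467c was 0.607, and without P2rx7-/- control replicate 2 that of miR-467F was 1.30, so that neither was called. Without P2rx7-/- control replicate 3, that of miR-466a-3p was 2.02. The average FC of miR-467a ran from 0.366 to 0.542 when each of the 6 samples was left out in turn, below 0.6 each time.

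The response to SE was addressed in wt mice by wt post-SE against wt control samples. miR-466a-3p, at 2.12 ± 1.44, miR-467b, at 1.71 ± 1.36, and miR-467d, at 1.59 ± 0.58 (SD, n = 3), were called up-regulated, and miR-467c, at 0.559 ± 0.156, was called down-regulated. All 4 had groups that overlapped. The shares of all miRNAs called up- and down-regulated were 23.3% and 12.5%. The log2 differences of the 8 ran from -0.88 to 0.69, with standard errors of 0.36 to 1.15, and the lowest adjusted limma p of the 8 was 0.806. At an unadjusted limma p below 0.05 there were 0 of the 8 and 3.88% of all miRNAs. Without wt control replicate 1, the average FCs of miR-466a-3p and miR-467c were 0.979 and 0.977. Without wt post-SE replicate 1 that of miR-467b was 1.10, and without wt post-SE replicate 3 that of miR-467d was 1.37. Each of the 4 calls was thus lost without 1 sample. The 3 up- and 1 down-regulated also changed with the normalizer, to 1 and 3 with snoRNA135 and to 0 and 4 with snoRNA202. Of all miRNAs, 17.3% and 19.1% were then called up- and down-regulated with snoRNA135, and 11.6% and 49% with snoRNA202.

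P2rx7-/- post-SE against wt control samples combined genotype and SE. miR-466a-3p, miR-467b, miR-467d and miR-467F were called up-regulated, with average FCs of 1.80 ± 0.26, 1.88 ± 1.03, 2.19 ± 2.06 and 1.67 ± 0.29 (SD, n = 3). The log2 differences of miR-466a-3p and miR-467F were 0.84 ± 1.07 and 0.73 ± 0.66 (SE), and their groups overlapped. miR-467a, at 0.481 ± 0.061, and miR-467c, at 0.472 ± 0.180, were called down-regulated. Of all miRNAs, 20.6% were called up- and 13.1% down-regulated. For miR-467a the groups did not overlap, and all first-group samples were lower in 7.46% of all miRNAs. Its log2 difference was -1.06 ± 0.36 (SE), with an unadjusted limma p of 0.0147 and an adjusted p of 0.712, the lowest adjusted p of the 8.

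These calls differed in how they depended on single samples. Without P2rx7-/- post-SE replicate 2, the average FC of miR-467d was 1.00. Without wt control replicate 1, that of miR-466a-3p was 0.830, that of miR-467F 1.21 and that of miR-467c 0.824. Without wt control replicate 3 that of miR-467b was 1.33. The average FC of miR-467a stayed between 0.457 and 0.516. These 3 comparisons share the wt control samples, so that the lower miR-467a and miR-467c values recur in them partly through the same 3 samples.

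The comparison of P2rx7-/- post-SE with P2rx7-/- control samples gives the response to SE within P2rx7-/- mice. miR-467c, at 2.11 ± 0.81, and miR-467d, at 2.93 ± 2.76 (SD, n = 3), were called up-regulated, and miR-466a-3p, at 0.491 ± 0.071, was called down-regulated. All had overlapping groups. Of all miRNAs, 17.9% and 7.16% were called up- and down-regulated. The adjusted limma p of each of the 8 was 0.998. Without P2rx7-/- control replicate 3, the average FC of miR-466a-3p was 0.891, and without P2rx7-/- control replicate 1 that of miR-467c was 0.951. Without P2rx7-/- post-SE replicate 2 that of miR-467d was 1.34. miR-467a differed little, at 1.11 ± 0.14.

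The effect of genotype after SE was read from P2rx7-/- post-SE samples relative to wt post-SE samples. miR-466b-3-3p, at 1.56 ± 1.26, miR-467b, at 1.66 ± 0.91, miR-467e, at 2.02 ± 1.63, and miR-467F, at 1.78 ± 0.31 (SD, n = 3), were called up-regulated. The log2 difference of miR-467F was 0.81 ± 0.66 (SE), and its groups overlapped. None of the 8 was called down-regulated, and the shares of all miRNAs called up- and down-regulated were 17% and 4.48%. The FCs behind the miR-467e call were 3.18, 0.157 and 2.73, and its geometric mean FC was 1.11. Without wt post-SE replicate 3, the average FCs of miR-467b and miR-467F were 0.787 and 1.13. Without P2rx7-/- post-SE replicate 3 that of miR-466b-3-3p was 0.854, and without wt post-SE replicate 2 that of miR-467e was 1.43. With geometric means, miR-467F alone of the 8 was above 1.5, at 1.76.

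For miR-467a all P2rx7-/- post-SE samples lay below all wt post-SE samples, as was the case in 3.58% of all miRNAs. The groups nearly touched, with replicate 1 at 0.529 of the wt control average in P2rx7-/- post-SE and at 0.533 in wt post-SE samples. The average FC of miR-467a was 0.615 ± 0.079 (SD, n = 3), just outside the criterion of 0.6. Its exact permutation p was 0.1, the smallest possible. The adjusted limma p of each of the 8 was 0.999. Averaged over both treatments, a contrast added after the values were seen, the log2 difference of miR-467a between P2rx7-/- and wt samples was -0.96 ± 0.26 (SE), with an unadjusted limma p of 0.00371 and an adjusted p of 0.621. By p this was the 2nd of the 335 miRNAs. The same contrast gave 0.78 ± 0.47 (SE) for miR-467F and 1.03 ± 0.70 (SE) for miR-467b, at adjusted limma p-values of 0.930 each.

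**Figure D3:**
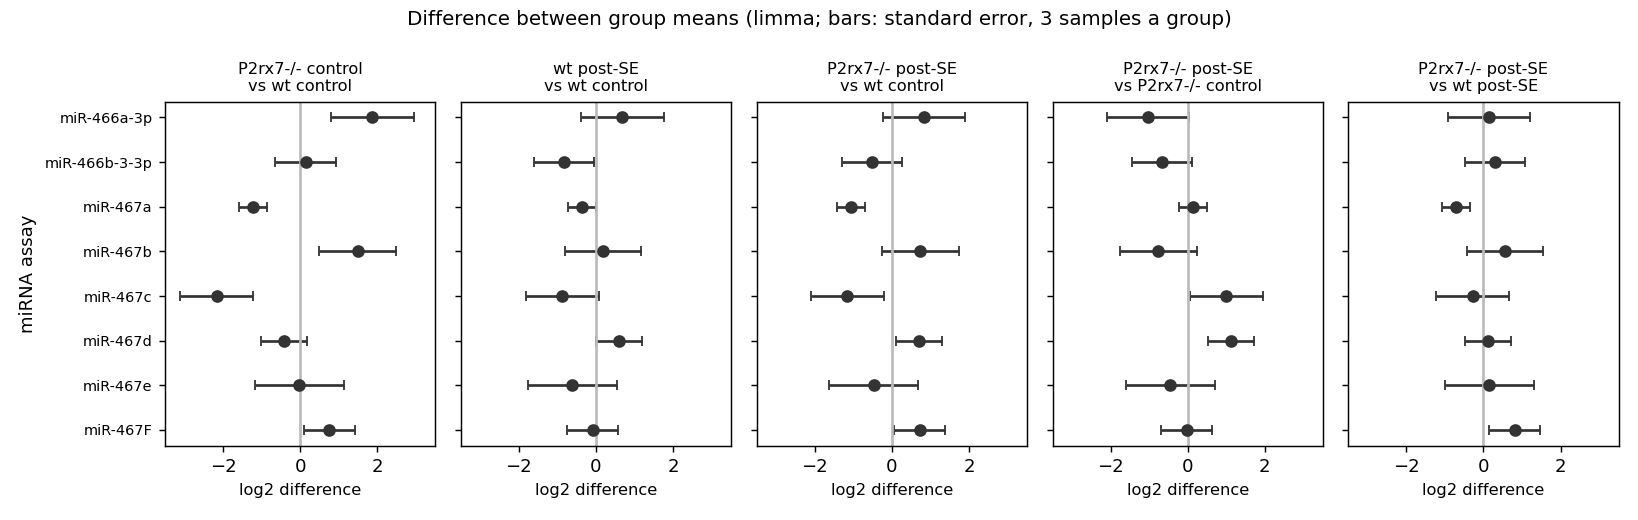
Log2 difference between group means of each of the 8 miRNAs (y axis) in the 5 comparisons (panels), with bars of 1 standard error from limma. miR-467a lies below 0 by 0.71 to 1.21 in the 3 comparisons of P2rx7-/- with wt samples, and in each panel, all with the mean of the miRNAs detected in all samples as normalizer, members lie on both sides of 0.

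Concordance in direction was described by counts and medians beside those of the whole array. In P2rx7-/- control against wt control samples 4 of the 8 were higher and 4 lower, with a median log2 difference of 0.06, where the median over all miRNAs was -0.02. With snoRNA202 as normalizer 3 were higher and 5 lower (medians -0.58 and -0.66). With a Ct in at least 2 of 3 samples of every group, 14 of 20 were higher and 6 lower (medians 0.46 and -0.02). With wt control replicate 1 left out and the detection criterion reapplied, 9 of 12 were higher and 3 lower (medians 0.49 and 0.003). In wt post-SE against wt control samples 3 were higher and 5 lower, with a median of -0.22 and of -0.09 over all. These counts depended on the normalizer, with 2 higher and 6 lower with snoRNA135 and 0 higher and 8 lower with snoRNA202. The medians of the 8 and of all miRNAs were then -0.52 and -0.39 with snoRNA135 and -0.94 and -0.81 with snoRNA202, as a change of normalizer moves all miRNAs alike. In P2rx7-/- post-SE against wt control samples 4 were higher and 4 lower, with medians of 0.12 and -0.09. With the other detection criteria, in the same order, 13 of 20 and 9 of 12 were higher. In wt post-SE against wt control samples these numbers were 12 of 20 and 4 of 12.

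Against P2rx7-/- control samples, the P2rx7-/- post-SE samples were higher in 3 and lower in 5 members, with medians of -0.24 for the 8 and 0.02 over all. Against wt post-SE samples they were higher in 6 and lower in 2, with medians of 0.15 and -0.01. The 2 lower ones were miR-467a and miR-467c. With snoRNA135 as normalizer 7 were higher and 1 lower, with medians of 0.45 and 0.28. With a Ct in at least 2 of 3 samples of every group, 11 of 20 were higher and 9 lower. Against P2rx7-/- control samples 7 of these 20 were higher and 13 lower. For comparison, the 42 miRNAs of the miR-379 to miR-410 cluster had medians from -0.10 to 0.02 in the 5 comparisons, with 15 to 22 of the 42 higher. The interaction of genotype and treatment had an adjusted limma p of at least 0.851 for each of the 8.

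Likeness of the 8 across the 12 samples was measured with Pearson's r between their scaled levels, which share the samples and the scaling. The median r of the 28 pairs was -0.12, and 10 pairs were positive, whereas the median over the 55945 pairs of all 335 miRNAs was 0.00. Within groups, as deviations from the group means, the median of the 28 pairs was -0.17. The assay pairs therefore did not rise and fall together across samples as a set.

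The most alike were miR-467b and miR-467F, with r of 0.80 (Spearman's rho 0.70), 0.78 within groups and 0.71 without the 2 samples farthest from the median of miR-467b. Of the 334 other miRNAs, miR-467F was the most like miR-467b, at r of 0.801, with miR-378 next at 0.799. The miRNA most like miR-467F was miR-700, with r of 0.819. The genes of miR-467b and miR-467F lie on different chromosomes, within Sfmbt2 and within Fxr2. The next were miR-466b-3-3p and miR-467e, with r of 0.61 (rho 0.63), which was 0.35 without the 2 farthest samples, and miR-467c and miR-467d, with r of 0.40 (rho 0.66).

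The least alike were miR-467d and miR-467e, with r of -0.67 (rho -0.31), which was -0.33 without the 2 samples farthest from the median of miR-467d, P2rx7-/- post-SE replicate 2 among them. miR-466a-3p and miR-467a had r of -0.56 (rho -0.14), which was -0.09 without the 2 farthest samples. miR-467a and miR-467F had r of -0.53 (rho -0.54), and -0.78 without the 2 farthest. The miRNAs most like miR-467a over the whole array were miR-19a and miR-25, with r of 0.87 and 0.86. The nearest member to miR-467a was miR-467c, with r of 0.27, ranked 80 of 334.

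**Figure D4:**
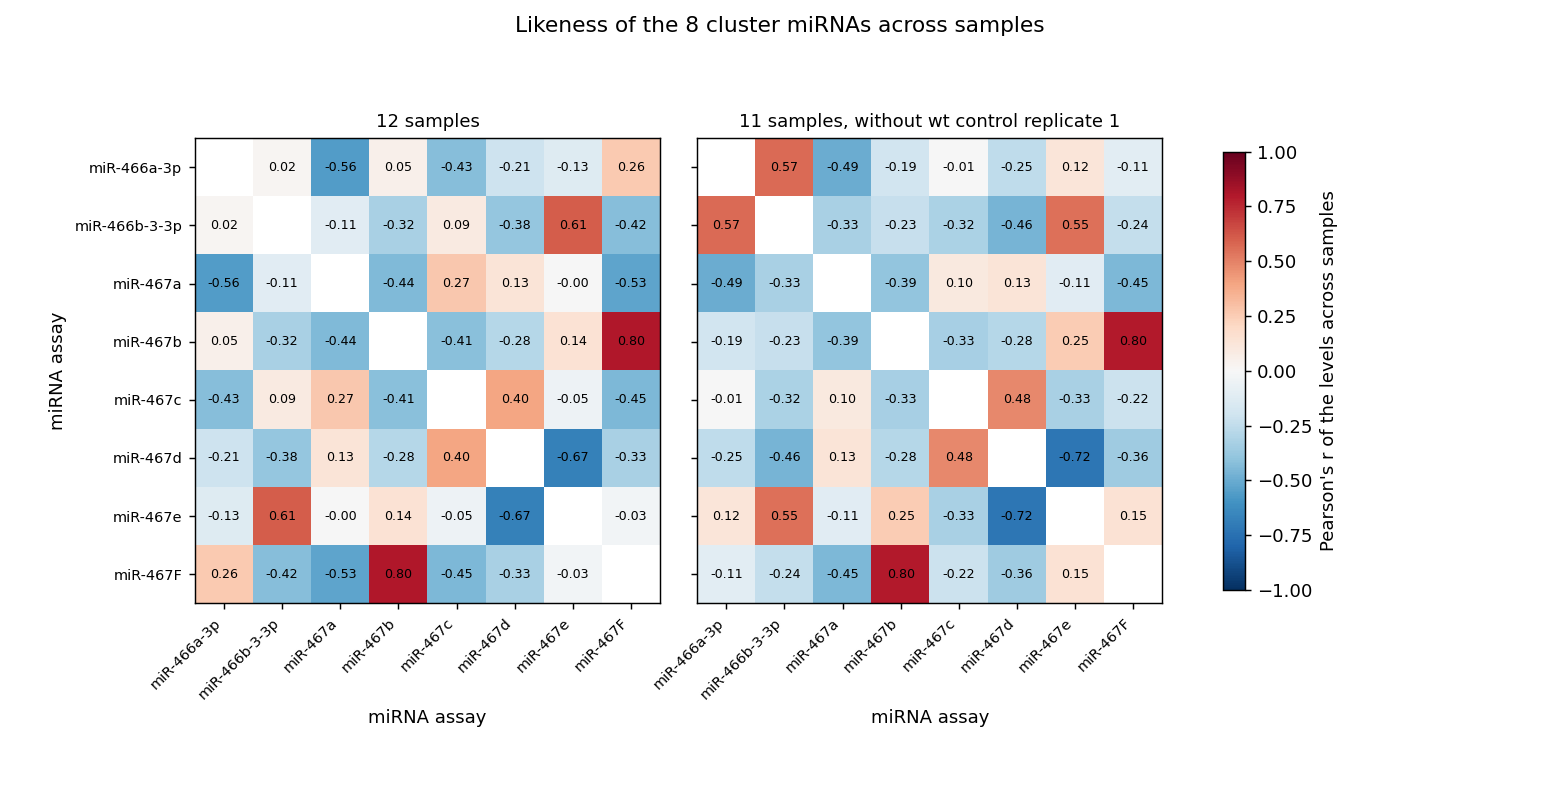
Pearson's r between the scaled levels of each pair of the 8 miRNAs, over 12 samples (left) and over the 11 samples without wt control replicate 1 (right). The pair of miR-467b and miR-467F is at 0.80 in both panels, whereas miR-466a-3p and miR-466b-3-3p are at 0.02 on the left and 0.57 on the right.

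miR-467a was read by a second assay, with Ct values in 8 samples, 2 per group. These were 14.1 and 17.8 in wt control, 14.7 and 15.8 in P2rx7-/- control, 15.1 and 16.2 in wt post-SE and 14.4 and 18.0 in P2rx7-/- post-SE samples. No group stood apart, and the values within wt control and within P2rx7-/- post-SE samples lay nearly as far apart as any of the 8. The Ct of the first assay was higher by a median of 4.45 cycles, and over these 8 samples r between the scaled levels of the assays was -0.21 (rho -0.02). The lower level of miR-467a in P2rx7-/- samples was therefore seen with 1 of its 2 assays. The assay miR-467#, read in 11 samples, had r of 0.12 (rho 0.31) with the first assay.

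When wt control replicate 1 was left out and the detection criterion was applied again to the other 11 samples, 12 of the 25 assays met it. The added 4 were miR-297a#, miR-466G, miR-467# and miR-669C. In P2rx7-/- control against wt control samples 7 of the 12 were then called up-regulated, among them miR-297a# at 1.73 ± 0.67 and miR-669C at 2.85 ± 2.79 (SD, n = 3), and 1, miR-467a at 0.454 ± 0.174, was called down-regulated. Of all miRNAs that met it, 19.6% and 6.28% were called. The lowest adjusted limma p of the 12 was 0.982.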

How the data were processed

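Levels of miRNAs were measured by TaqMan OpenArray in 12 samples, 3 per group, grouped by the sample titles. The authors deposited Ct values that were not normalized, in a table of 653 assay lines with Ct from 10.0 to 28.0, and a table of fold changes (ratio), which was not used here. The software behind the Ct calls is not given in the sources used here, and RNA degradation was not assessed. Columns of samples outside the series numbered 0. As Ct values give no read depth, the number of samples limits the precision, and p-values measure the spread between pooled samples. ΔCt was the Ct minus the sample's mean over the 335 miRNAs with a Ct below 28 in all samples, and FC was 2 to the power of −ΔΔCt. Calls used an average FC above 1.5 or below 0.6, as in the methods. With R 4.3.3 and limma 3.58.1 (lmFit and eBayes), −ΔCt of all 12 samples was fitted with 1 coefficient per group, and Benjamini-Hochberg adjustment of p covered the 335. Single counts were compared by exact permutation. The other steps ran in Python 3.11.15 with pandas 2.3.3, numpy 2.4.6, matplotlib 3.10.9 and scipy 1.17.1, and the fit was tested on simulated data. Members, comparison list and tests were chosen with earlier results of these data known. Named were all 25 assays, by value in every sample where a Ct was present in all 12, and otherwise by number of samples, range and values over 4 cycles from the rest, and the 3 highest and 3 lowest of the pairwise r. Alternatives covered the normalizer (mean of all assays with a Ct, snoRNA135, snoRNA202), the detection criterion, geometric means, the methods' t-test, the replicate block and leaving out each sample.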

Additional observations from a re-analysis of the deposited data

Results flagged for a closer look

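For miR-467c the response to SE went opposite ways in the genotypes when all samples were used. All 3 wt post-SE samples were below the wt control average, with FCs of 0.386, 0.601 and 0.691, and all 3 P2rx7-/- post-SE samples were above the P2rx7-/- control average, with FCs of 1.34, 2.95 and 2.04. The interaction on the log2 scale was 1.89 ± 1.34 (SE), with a limma p of 0.188 and an adjusted p of 0.851, so that the difference did not pass the test. It ran from 0.74 to 2.53 when each sample was left out. Without P2rx7-/- control replicate 1 the log2 difference in P2rx7-/- mice was -0.15, the same direction as in wt mice, and without wt control replicate 1 that in wt mice was -0.076. The wt control average includes wt control replicate 1, at an FC of 3.05, and the P2rx7-/- control average includes replicate 1, at 0.0452 of the wt control average.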

How the results depend on the processing

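The adjusted limma p of the cluster miRNAs was below 0.05 for 0 in all 6 comparisons under every alternative, with values from 0.267 up. Members called by FC, 5, 4, 6, 3 and 4 of 8 in the comparisons in the order of the report, were counted again. With the methods' t-test as a further condition they numbered 1, 0, 1, 0 and 0 (2.09%, 1.79%, 2.99%, 0.896% and 0.597% of all miRNAs), and with a Ct in at least 2 of 3 samples of every group 14, 11, 13, 9 and 9 of 20 (40.8%, 39.5%, 38.7%, 31.8% and 28% of all). With wt control replicate 1 left out and the criterion reapplied, added after seeing the data, they numbered 8, 2 and 6 of 12 in the first 3 (25.9%, 22.5% and 21.7% of all). With snoRNA202 as normalizer there were 2 in P2rx7-/- post-SE against wt control samples, 0 of them up-regulated where 4 of 6 had been (11% up and 38.2% down of all), and in P2rx7-/- control against wt control samples 2 up and 3 down in place of 3 and 2 (11.3% and 42.4% of all). With geometric means there was 1 between genotypes after SE (18.2% of all). Leaving out each sample gave 5 to 6, 1 to 6, 4 to 7, 2 to 5 and 3 to 5. The share of all miRNAs called was not computed for these runs, so these counts have no whole-array value beside them. In wt post-SE against wt control samples the 1 came without wt control replicate 1, and the 5 for the response to SE within P2rx7-/- mice came without P2rx7-/- control replicate 2.

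Of 41 log2 differences of single members, 20 changed sign under some alternative, none of which was above 1.01 in size or had passed the adjusted test. In P2rx7-/- control against wt control samples, miR-466b-3-3p was -0.030 with the mean of all assays and -0.50 with snoRNA202 and ran from -0.42 to 0.76 on leaving out samples. miR-467e was 0.017 with snoRNA135, 0.011 with Ct below 26 and 0.53 with wt control replicate 1 left out and the criterion reapplied (the reapplied criterion), and ran from -0.91 to 0.52. In wt post-SE against wt control samples, miR-466a-3p was -0.038 with snoRNA202 and -0.46 with the reapplied criterion (-0.43 to 1.55 on leaving out samples), miR-467b was -0.12 with snoRNA135, -0.54 with snoRNA202 and -0.10 with the reapplied criterion (-0.51 to 1.26), miR-467d was -0.14 with snoRNA202, and miR-467F ran from -0.69 to 0.57. In P2rx7-/- post-SE against wt control samples, with the reapplied criterion, miR-466a-3p was -0.31 (-0.28 to 1.52), miR-466b-3-3p 0.072 (-1.15 to 0.10) and miR-467e 0.043 (-1.36 to 0.94), and miR-467d ran from -0.025 to 1.22. In P2rx7-/- post-SE against P2rx7-/- control samples, miR-467F was 0.0018 with the mean of all assays and 0.079 with snoRNA202 (-0.38 to 0.38), and the ranges were -0.16 to 0.42 for miR-467a, -0.15 to 1.65 for miR-467c and -1.21 to 0.96 for miR-467e. Between genotypes after SE, miR-467c was 0.021 with snoRNA135 (-0.55 to 0.014), and the ranges were -0.72 to 0.64 for miR-466a-3p, -0.32 to 0.89 for miR-466b-3-3p, -0.52 to 1.24 for miR-467b, -0.61 to 0.63 for miR-467d and -0.61 to 1.56 for miR-467e. The cause was not tested. The log2 differences of miR-467a between genotypes kept their sign under every alternative.

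The difference in the number of assays with a Ct ran, on leaving out samples, from -2.83 to 0.33, -2.50 to 0.50, -2.83 to 0.33 and -1.50 to 1.00 in the 4 comparisons other than that within P2rx7-/- mice. The median r of the 28 pairs was -0.22 without wt control replicate 1 and -0.17 within groups. The labels do not say what a shared replicate number stands for. The correlation of deviations was above 0.1 in 4 of 18 same-numbered pairs, 3 of which were the replicate 3 pairs outside wt control samples (0.251 to 0.277), and 6 of 12 samples correlated best with their own number. As not every pair was above 0.1, the samples were taken as unpaired. With the replicate block, 0 cluster miRNAs passed the adjusted limma p, as without it.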
